A study of Mus musculus with 20 samples.

Results

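Lysyl oxidases and collagen hydroxylases were described in mouse embryonic fibroblasts, the connective tissue cells that grow out of a dissociated embryo, from wild type and E2F4 null embryos. The 10 genes were chosen by name as the enzymes of collagen hydroxylation and crosslinking, and by an earlier result of the same arrays, in which Plod3 and Loxl3 were lower in the null. Of these, 9 had a probe set annotated to 1 gene symbol, and together they had 14 of the 20380 such probe sets on the array. Loxl2 had none and was not analysed here. The wild type group held 10 primary cultures from 3 embryos at 13.5 dpc (days post coitum), with 3, 3 and 4 cultures per embryo, and the E2F4 null group held 10 cultures from 5 embryos of that age, with 2 each. One Affymetrix array was run per culture, and the embryo was taken as the replicate. No treatment is given in the labels, nor the strain, sex, litter or passage, nor which part of the E2f4 gene is missing.

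Collagen is modified both inside and outside the cell before it forms stable fibres. In the endoplasmic reticulum, prolyl 4-hydroxylases (catalytic subunits P4ha1 and P4ha2) stabilise the triple helix, and lysyl hydroxylases (Plod1, Plod2 and Plod3) hydroxylate lysines, with iron, 2-oxoglutarate and ascorbate as cofactors. Outside the cell, the copper enzymes of the lysyl oxidase family (Lox and Loxl1 to Loxl4) oxidise lysine and hydroxylysine side chains, which then crosslink collagen and elastin. Fibroblasts are the main makers of this matrix, and several of these genes are known targets of the hypoxia-inducible factor HIF. E2F4 is a transcription factor that, with the pocket proteins, represses genes of the cell cycle.

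The 13 fibroblast markers examined, among them Col1a1, Col1a2, Vim and Thy1, all lay above the filter on low signal, and their summed signal ran from 94122 to 95433 in the wild type and from 85538 to 96213 in the null embryos. Some single markers varied more than the sum, with Lum at 81.8 to 2220 and Pdgfra at 191 to 1370 over the embryos. Others varied less, such as Col1a1 at 10300 to 13800. All 7 endothelial markers, such as Pecam1 and Cdh5, lay below the filter, while 8 of 10 macrophage and leukocyte markers lay above it. MAS5 signals are on a linear scale, and every array had a trimmed mean of 500.2. E2f4 itself had signals of 209.3, 211.6 and 221.5 in the wild type embryos and 156.7, 166.8, 155.6, 154.9 and 196.5 in null embryos 1 to 5. The 5 null values were all lower than the 3 wild type ones. The difference, -0.35 (log2, SE 0.10), had a limma adjusted p = 0.363. All 20 arrays were most like another array of the same embryo. Control probe sets of 2 arrays, wild type embryo 2 culture 1 and null embryo 4 culture 2, stood apart from the other arrays, with mean deviations of 0.36 and 0.49 (log2) against 0.10 to 0.29.

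Promoter windows, 250 bases before to 50 after the gene start, were given by RefSeq (GRCm38.p6) for 5 of the genes, Plod1, Plod3, P4ha1, P4ha2 and Loxl4. Plod3 is shown because it separated the genotypes, and P4ha1 and Loxl4 because they followed the same order of embryos. Capitals mark the hypoxia response core ACGTG or GCGTG on either strand, so that a match on the lower strand reads CACGT or CACGC. The windows are chr5:136986769-136987068 (plus strand), chr10:59323046-59323345 (plus strand) and chr19:42612757-42613056 (minus strand), read 5′ to 3′ on the strand of the gene.
Plod3: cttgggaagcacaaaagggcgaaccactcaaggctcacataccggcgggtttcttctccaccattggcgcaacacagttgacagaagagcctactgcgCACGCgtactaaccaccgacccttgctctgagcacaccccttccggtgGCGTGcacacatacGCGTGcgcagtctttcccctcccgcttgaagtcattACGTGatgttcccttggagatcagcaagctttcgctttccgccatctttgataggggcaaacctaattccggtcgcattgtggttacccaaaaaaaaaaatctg
P4ha1: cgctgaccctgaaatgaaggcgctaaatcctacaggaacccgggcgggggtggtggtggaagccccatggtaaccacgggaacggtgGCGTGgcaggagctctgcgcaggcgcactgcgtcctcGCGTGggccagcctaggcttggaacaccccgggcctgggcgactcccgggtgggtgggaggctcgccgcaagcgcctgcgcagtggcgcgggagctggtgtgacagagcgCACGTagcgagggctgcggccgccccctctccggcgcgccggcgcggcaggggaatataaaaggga
Loxl4: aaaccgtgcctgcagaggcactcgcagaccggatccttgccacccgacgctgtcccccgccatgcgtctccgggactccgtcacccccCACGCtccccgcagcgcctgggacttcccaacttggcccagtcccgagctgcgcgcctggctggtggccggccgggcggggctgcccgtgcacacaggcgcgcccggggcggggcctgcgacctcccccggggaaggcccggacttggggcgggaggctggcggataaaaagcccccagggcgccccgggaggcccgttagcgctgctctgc

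The core was found in all 5 windows, and in 43.8% of the 32851 windows of the table. In the Plod3 window the match ACGTG began at base -54 from the start, with the GCGTG matches at -104 and -90 before it and 1 on the lower strand at -152. P4ha1 had matches at -163, -126 and -16, and Loxl4 had 1, at -162. No match overlapped another in these windows. The GC content was 53.3% for Plod3, 70.3% for P4ha1 and 75.0% for Loxl4, against a median of 52.7% for all windows. Both spellings of the core contain the letters CG. These windows held 19, 32 and 32 such CG pairs, against a median of 7. How often windows as rich in CG hold the core was not counted. None of the 8-base E2F motifs searched (TTTCCCGC, TTTCGCGC, TTTGCCGC and TTTGGCGC, both strands) was in the 5 windows, and 2.26% of all windows held one. Nor was the CHR element TTTGAA, which 17.9% held. The TATA letters TATAAA were in the windows of Plod1, at -232 on the lower strand, and of P4ha1, at 40, after the start. They were in 13.6% of all windows.

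The first question was which enzymes differed between the genotypes. Since this contrast was used to choose the genes, its values are a description without a test. Plod3, a lysyl hydroxylase that also adds sugars to hydroxylysine, had mean signals of 1738, 1486 and 1698 in wild type embryos 1 to 3 and of 1270, 1223, 1201, 1299 and 1213 in null embryos 1 to 5. Every null array, at 1125 to 1369, lay below every wild type array, at 1384 to 1941. The means were 1641 ± 136 (SD, n = 3) and 1241 ± 41.6 (n = 5), a difference of -0.39 (SE 0.07) on the log2(signal + 16) scale, which is used for all differences and understates those of dim genes.

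Loxl3, a lysyl oxidase with scavenger receptor domains that is needed for palate and spine development, had signals of 2788, 3444 and 3245 in the wild type embryos and of 1945, 2639, 2200, 1947 and 1992 in the null embryos. The embryo groups did not overlap, though null embryo 2 came near wild type embryo 1, and single arrays overlapped (2687 to 3532 in the wild type, 1869 to 2705 in the null). The means were 3159 ± 336 (SD, n = 3) and 2145 ± 296 (n = 5), and the difference was -0.56 (SE 0.11). Plod3 and Loxl3 were the 2 of 9 genes whose null embryos were all lower than any wild type embryo, as was so for 3.71% of the 7436 genes kept. In 0 of 9 were all null embryos higher, against 2.95% of the genes kept.

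The other lysyl oxidases overlapped between the genotypes. Lox, which crosslinks collagen and elastin, had 10385 ± 1742 (SD, n = 3) in the wild type and 9364 ± 1977 (n = 5) in the null, which differ by -0.16 (SE 0.17). Its second bright probe set gave -0.20 (SE 0.20), while the third, at signals of 10.7 to 97.7, gave 0.16 (SE 0.23) and was too dim to follow the others. Loxl4 had 232 ± 80.8 and 165 ± 70.5 (difference -0.48, SE 0.30), and its other probe set differed by -0.34 (SE 0.22). The embryos overlapped, with null embryo 2 at 274 and wild type embryo 3 at 167. Without wild type embryo 2 the Loxl4 difference was -0.23 and that of Loxl3 -0.49, and a fit blocked on embryo number gave the same values. Loxl1, the oxidase most tied to elastin upkeep, stood at 5701 ± 120 and 5594 ± 164 (difference -0.03, SE 0.05). No array of it left the range of 5324 to 5879.

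The other hydroxylases overlapped too. Plod1, the lysyl hydroxylase of helical lysines, had 451 ± 71.0 (SD, n = 3) in the wild type and 426 ± 44.0 (n = 5) in the null (difference -0.07, SE 0.12). Plod2, which hydroxylates the telopeptide lysines that set the kind of crosslink, had 1362 ± 368 and 1484 ± 364 (difference 0.12, SE 0.21), and its other probe set gave 0.28 (SE 0.21). P4ha1 had 1279 ± 204 and 1399 ± 143 (0.14, SE 0.11), with 0.17 (SE 0.13) by the other probe set. P4ha2 had 875 ± 101 and 825 ± 94.8 (-0.09, SE 0.11). Plod3 and Loxl3, known to be lower when the genes were chosen, were thus the only members measured whose embryos did not overlap. This follows the choice and is not a result about the enzyme families.

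**Figure D1:**
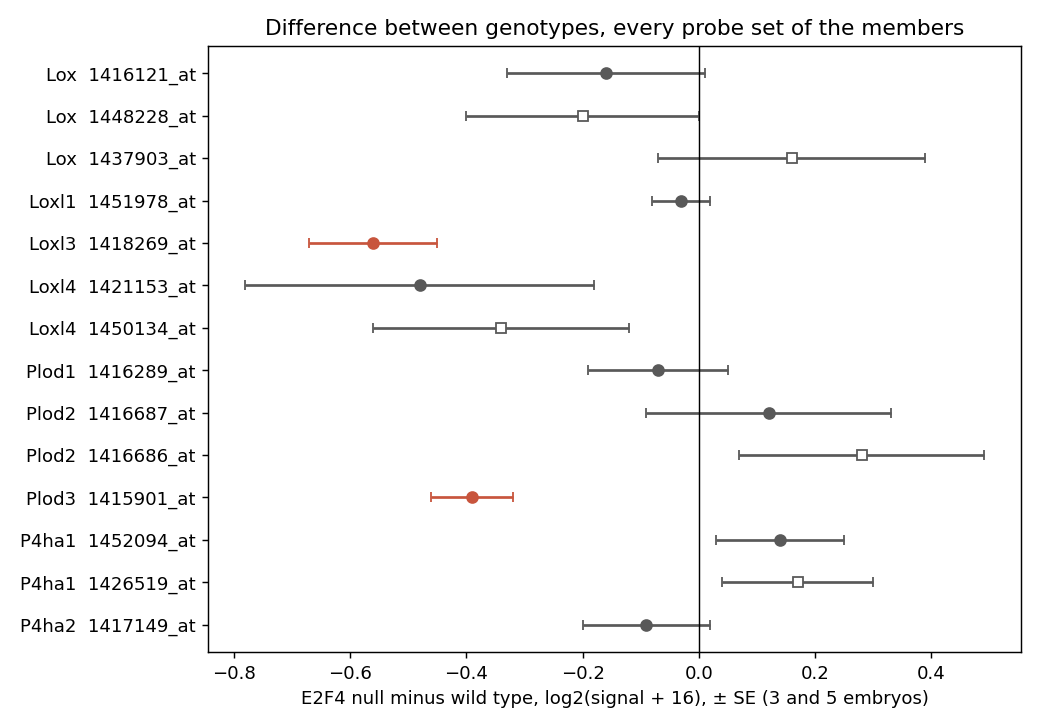
Difference in log2(signal + 16) between E2F4 null (5 embryos) and wild type (3 embryos) for all 14 probe sets, with the standard error as bars; filled circles are the probe sets that represent the gene, open squares the others, and red marks genes in which no null embryo overlapped a wild type embryo. Loxl3 at -0.56 and Plod3 at -0.39 have bars of 0.11 and 0.07, and Loxl4 at -0.48 has a bar of 0.30.

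Of the 9 genes, 7 had a difference below 0, with a median of -0.09, and 51% of all genes had one, with a median of -0.003. Nothing is read from this count, as 2 of the 9 were known to be lower.

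**Figure D2:**
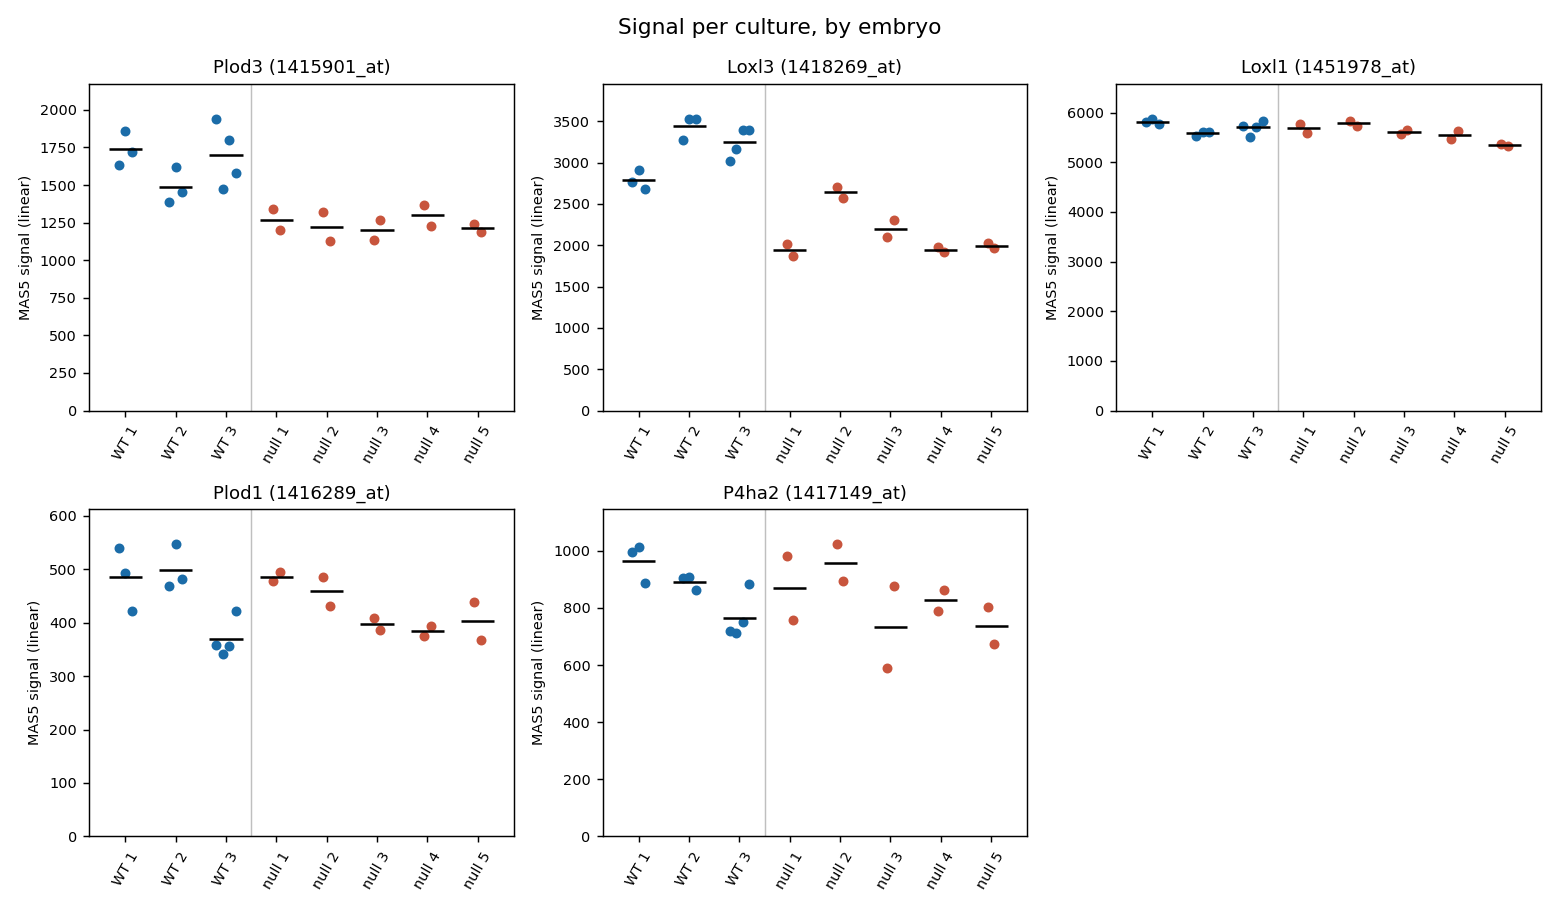
MAS5 signal (linear axis from 0) of each culture for Plod3, Loxl3, Loxl1, Plod1 and P4ha2, by embryo; points are cultures (blue wild type, red null) and lines are embryo means. The 10 null cultures of Plod3 sit at 1125 to 1369, below the wild type cultures at 1384 to 1941, and Loxl1 stays between 5324 and 5879 in both genotypes.

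The second question was how far the embryos of 1 genotype differed from each other, which the choice of genes did not compare. Plod3 and Loxl3 were picked by a difference between genotypes, which shows more readily where embryos of 1 genotype differ little. The spread of these genes is thus not free of the choice. Cultures of the embryos were compared by an F test in limma, in each genotype by itself. Between wild type embryos, 7 of 9 members differed at an adjusted p under 0.05, against 50.1% of all genes, and between null embryos 5 of 9, against 22.9%. Without wild type embryo 2 the wild type count was 5, against 15.1% of all genes. The same 5, Lox, Loxl3, Loxl4, Plod2 and P4ha1, were called in both, as were 19% of all genes. Cultures of 1 embryo share their source, so a difference between embryos cannot be told apart from one of their handling. Without null embryo 2 the count in the null was 3, as Loxl3 and P4ha1 were lost (adjusted p = 0.31 and 0.154), against 13.2% of all genes.

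Lox had signals of 9875, 12325 and 8955 in wild type embryos 1 to 3 and of 11074, 11928, 7839, 7856 and 8121 in null embryos 1 to 5. Wild type embryo 2 and null embryos 1 and 2 were high, and null embryos 3 to 5 were the lowest of the 8. The embryo means spanned 0.46 (log2) in the wild type and 0.60 in the null, while cultures of 1 embryo had an SD of 0.07 and 0.04 (limma adjusted p = 2.02e-05 and 2.29e-05). The second bright probe set of Lox spanned 0.57 and 0.72, with the same 3 embryos highest in their groups. Without wild type embryo 2, the wild type call was lost (adjusted p = 0.099).

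Plod2 had signals of 1347, 1736 and 1002 in the wild type embryos and 1989, 1752, 1228, 1194 and 1257 in the null embryos. The same 3 embryos were high, with null embryo 1 above null embryo 2. Its means spanned 0.78 in the wild type (culture SD 0.05) and 0.73 in the null (culture SD 0.09), with limma adjusted p = 1.16e-07 and 9.58e-05. These ranges were at the 91.8 and 90.9 percentile of all genes. Its other probe set spanned 0.81 and 0.73.

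Loxl4 had signals of 206, 322 and 167 in the wild type and of 199, 274, 119, 118 and 115 in the null. Its ranges, 0.89 and 1.15, were the widest of the 9 genes (limma adjusted p = 9.99e-06 and 0.00018), at the 94.1 and 97.4 percentile of all genes. Without wild type embryo 2 the wild type embryos no longer passed (adjusted p = 0.091). P4ha1 had 1279, 1482 and 1075 in the wild type and 1493, 1599, 1267, 1351 and 1287 in the null, with ranges of 0.46 and 0.33 (adjusted p = 0.00022 and 0.0151). The null call was also lost in limma without the trend (adjusted p = 0.0544). The other probe set of P4ha1 had null embryo 3, at 906, above null embryo 1, at 853, so the order did not hold there.

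**Figure D3:**
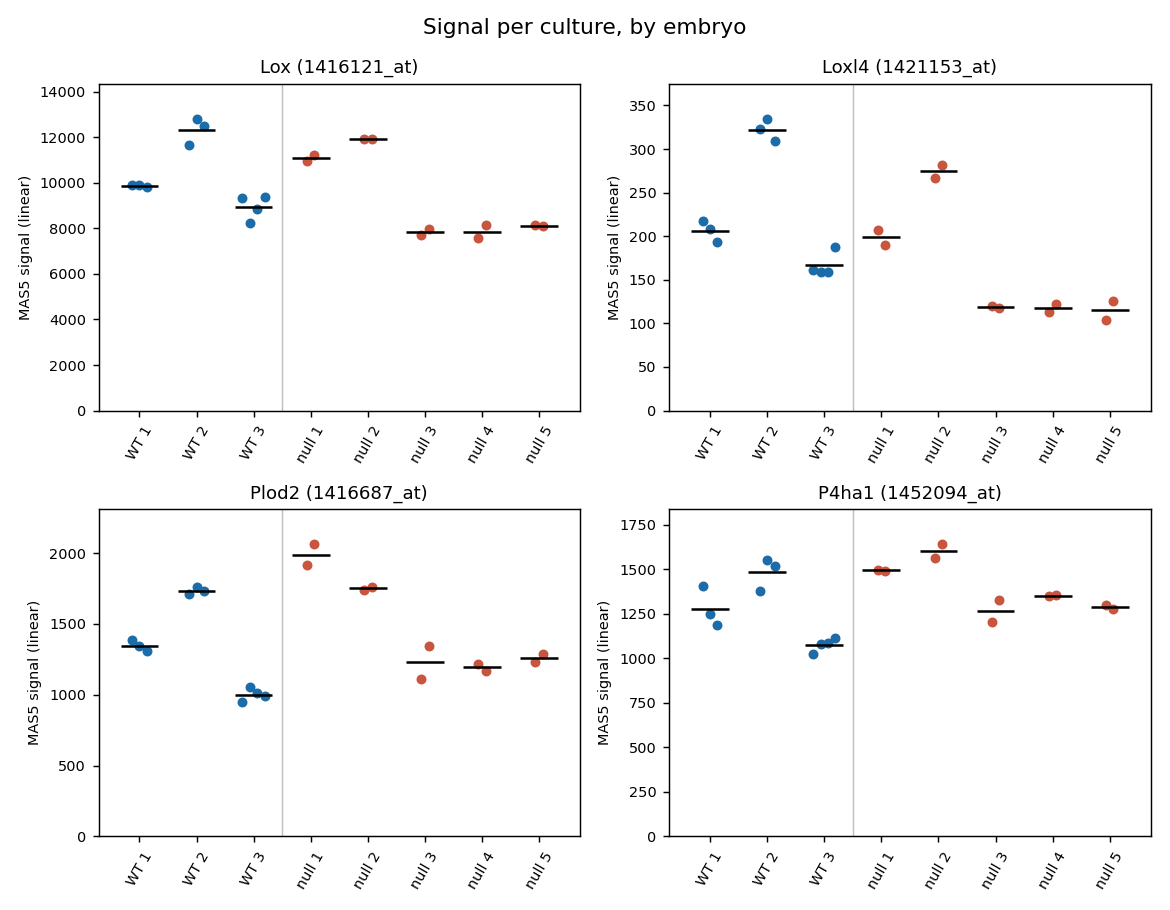
MAS5 signal (linear axis from 0) of each culture for Lox, Loxl4, Plod2 and P4ha1, by embryo; points are cultures (blue wild type, red null) and lines are embryo means. In all 4 panels wild type embryo 2 is the highest wild type embryo and null embryos 1 and 2 are the highest null embryos; for Lox they average 12325, 11074 and 11928.

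The order with wild type embryo 2 highest in its group and null embryos 1 and 2 highest in theirs, noticed after the values were seen, held for 5 of 9 members, Lox, Loxl4, Plod1, Plod2 and P4ha1, and for 14.8% of all genes. Plod1 showed it weakly, with 485, 499 and 369 in the wild type and 486, 459, 397, 385 and 403 in the null. Its embryos differed in the wild type (limma adjusted p = 0.00371; range 0.42) but not when wild type embryo 3 was left out (adjusted p = 0.771), and the null did not pass (adjusted p = 0.139). With cultures 1 and 2 only, 4 members held the order, all but Plod1. The reverse order, with these 3 embryos lowest, held for 0 of 9 members and 18.4% of all genes.

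Loxl3, Plod3, Loxl1 and P4ha2 did not follow the order. In Loxl3, null embryo 2 was the highest null embryo and null embryos 1 and 4 were the lowest (range 0.44, limma adjusted p = 0.00269), and the wild type range was 0.30 (adjusted p = 0.00193). The latter did not pass when wild type embryo 1 was left out (adjusted p = 0.249) or with cultures 1 and 2 only (adjusted p = 0.0743). P4ha2 had 966, 892 and 766 in the wild type (range 0.33, adjusted p = 0.00729), a call lost without wild type embryo 3 (adjusted p = 0.254), and 869, 959, 733, 827 and 738 in the null (adjusted p = 0.292). Cultures of 1 null embryo differed as much for P4ha2 as embryos did, with a culture SD of 0.24. Plod3 did not pass in either genotype (limma adjusted p = 0.108 and 0.817), except in the wild type without wild type embryo 3 (adjusted p = 0.0349), and its null range of 0.11 was at the 4.5 percentile of all genes. Loxl1 did not pass either (adjusted p = 0.502 and 0.586), with ranges of 0.06 and 0.11. It passed in the wild type with quantile normalization (adjusted p = 0.0368).

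Other signals followed the same order of embryos. The summed signal of 5 smooth muscle markers was 29481, 43227 and 27572 in the wild type and 36961, 40011, 28873, 30553 and 26797 in the null. Acta2 was the brightest of them, and Myocd and Myh11 lay below the filter. The summed signal of 8 skeletal and cardiac muscle markers, 3 of them above the filter, was 928, 4366 and 595, and 1964, 3727, 581, 508 and 526. Most of it was the actin gene Acta1, at 211 to 3870, while the muscle regulators Myod1 and Myog did not exceed 30.3 and 33.2 in any embryo. The summed signal of 8 epithelial markers ran from 365 to 606 and from 467 to 801, also with these embryos highest. Of the 8, only 2 lay above the filter, Krt19 at 170 to 451 and Krt18 at 60.7 to 213. Cdh1 and Epcam stayed at or below 15.4 and 12.8. Actin control probe sets deviated by 0.20 to 0.34 (log2) in the cultures of wild type embryo 2 and by 0.18 to 0.22 in those of null embryos 1 and 2, against -0.22 to 0.25 in the others. Gapdh control probe sets deviated by 0.13 to 0.25 and by 0.14 to 0.20 in the same cultures, and by -0.20 to 0.02 in the others but null embryo 4 culture 2, at 0.26. Hybridization controls, which are added to the sample and not made by the cells, deviated by 0.18 to 0.42 in null embryos 1 and 2 and by -0.06 to 0.02 in null embryos 3 and 5 and null embryo 4 culture 1, with 0.79 in null embryo 4 culture 2. In wild type embryo 2 they deviated by -0.11 to -0.01, within the -0.39 to 0.12 of the other wild type cultures. The summed signal of 6 neural and glial markers had the reverse order, at 1801, 1343 and 2340, and 1774, 1219, 2027, 2115 and 1899. Stmn2, at 611 to 1440, was its brightest gene, and Map2, Sox10 and Gfap lay below the filter. The macrophage sum had another order, at 1722, 2678 and 1725, and 1372, 2199, 2421, 4618 and 2673. The part of these signals in the differences between embryos was not tested. In bulk cultures, fewer cells of a type and less RNA per cell cannot be told apart.

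Genes that work with these enzymes were then compared between genotypes, from lists of 94 genes outside the members. Of these, 81 had a probe set of 1 symbol and 72 were kept. With limma 0 were called in either direction, against 0.0134% of all genes, 5 had an unadjusted p under 0.05 above 0 and 3 below, which together are 8 of 72 against 8.7% of all genes. The null embryos were all lower than the wild type embryos in 3 of 72, against 3.71% of all genes, and all higher in 3, against 2.95%, so these shares were near those of all genes. Of the 72, 48 had a difference below 0, with a median of -0.05, against the 51% and -0.003 of all genes. This lean was smaller in some alternatives. Without wild type embryo 2, 8 of 16 genes of the endoplasmic reticulum, 1 of 5 processing genes and 4 of 11 substrates were lower. The matrix partners (8 of 10) and the TGF-beta and HIF regulators (10 of 13) still leaned downwards. With the embryo number as a replicate block, 9, 1 and 4 genes of the first 3 lists were lower. Without wild type embryo 1 these counts were 10, 4 and 5. A fit over cultures that took the embryo as a random block called 1, Pcolce2, and did so too with the culture number added.

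Of 16 other genes of collagen folding and modification in the endoplasmic reticulum, 13 differed downwards, with a median of -0.06, but 8 of 16 without wild type embryo 2. P3h4, a partner of the helical lysyl hydroxylase, had 1931 ± 96.7 (SD, n = 3) in the wild type and 1653 ± 174 (n = 5) in null embryos, which gives -0.23 (SE 0.09; limma adjusted p = 0.501). Fkbp7, a prolyl isomerase, differed by -0.24 (SE 0.12; adjusted p = 0.623). In this list 9 of 16 genes had the order with wild type embryo 2 and null embryos 1 and 2 highest, against 14.8% of all genes. Among them, named after their values were seen, were P4hb, the beta subunit that P4ha1 and P4ha2 need, and the collagen chaperone Serpinh1.

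Among 5 genes that process procollagen or the lysyl oxidase precursor, Pcolce2, an enhancer of procollagen C-proteinase, had signals of 1103, 985.9 and 1001 in the wild type and 759.2, 651.0, 707.0, 803.9 and 778.2 in the null. The groups did not overlap, the difference was -0.47 (SE 0.08), and it did not pass (limma adjusted p = 0.192, and 0.0149 to 0.520 over the alternatives). Like Plod3, it did not differ between embryos of 1 genotype at the threshold (limma F test adjusted p = 0.271 and 0.218). Pcolce2 was named for its small p between genotypes, which favours genes with a small spread between embryos. Bmp1, the protease that cuts procollagen and the Lox precursor, differed by -0.10 (SE 0.16; adjusted p = 0.888).

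Of 11 substrates, 7 differed downwards (median -0.05) and none was called. Without wild type embryo 2, 4 were lower and 7 higher (median 0.03). Leaving out wild type embryo 1 gave 5 lower and 6 higher (median 0.07). Col2a1, a cartilage collagen, had 436.8 ± 56.1 (SD, n = 3) and 550.2 ± 58.5 (n = 5), a difference of 0.33 (SE 0.11; limma adjusted p = 0.431), and Col5a1 differed by -0.29 (SE 0.14; adjusted p = 0.609). For Col2a1 every null embryo was above every wild type embryo. Between embryos, 9 of the 11 differed in the wild type, against 50.1% of all genes, and 7 in the null, against 22.9%. The order of Lox and Plod2 held for 7, against 14.8%. Named after their values were seen, the basement membrane collagen Col4a1 had 5637, 6567 and 3245 in the wild type and 8591, 7795, 5397, 5350 and 3979 in the null (F test adjusted p = 4.26e-08 and 6.28e-07, limma). The fibrillar collagen Col5a2 had 12330, 15500 and 11710, and 14120, 15190, 11160, 10960 and 10750 (adjusted p = 4.41e-05 and 0.000451). So 5 of the 9 members and 7 of the 11 substrates were highest in the same embryos of each genotype. This order was noticed after the values were seen. In Col3a1 and Col5a3, wild type embryo 2 was instead the lowest wild type embryo.

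**Figure D4:**
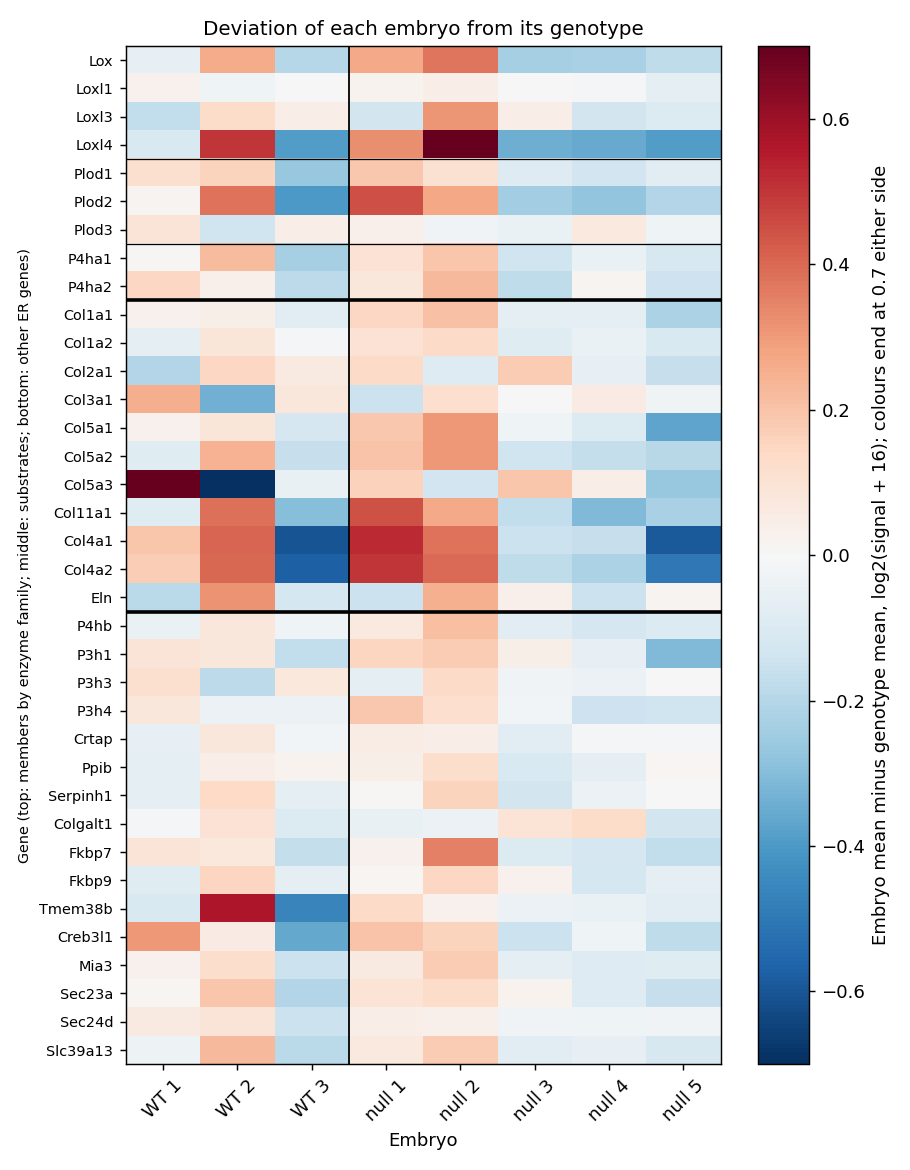
Deviation of each embryo mean from the mean of its genotype in log2(signal + 16), for the 9 members (top, by enzyme family), 11 substrates (middle) and 16 other genes of the endoplasmic reticulum (bottom); red is above and blue below the genotype mean. Wild type embryo 2 and null embryos 1 and 2 are red for Lox, Loxl4, Plod2 and P4ha1, and 7 of the 11 substrates share that order, whereas Plod3 and Loxl1 are pale throughout.

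Of 10 matrix partners, 9 differed downwards, with a median of -0.14 (6 and -0.03 without wild type embryo 1). Emilin1, an elastic fibre glycoprotein, had 616.4 ± 66.2 (SD, n = 3) and 486.9 ± 33.2 (n = 5), a difference of -0.33 (SE 0.09; limma adjusted p = 0.360), with no overlap of embryos. Thbs1, a matrix glycoprotein that activates TGF-beta, differed by -0.44 (SE 0.27; adjusted p = 0.692), and its embryos followed the order of Lox, with 11190, 14930 and 9017, and 12630, 11870, 6761, 6574 and 6389. Of 4 genes of copper and ascorbate supply, 3 differed downwards, and in 1, Atp7a, every null embryo was below every wild type embryo. The copper pump Atp7a, which loads the lysyl oxidases, differed by -0.09 (SE 0.06; adjusted p = 0.715) and the copper chaperone Atox1 by -0.04 (SE 0.10; adjusted p = 0.936).

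Regulators and relatives of the hydroxylases gave no call either. Of 13 TGF-beta and HIF regulators, 11 differed downwards (median -0.15, with -0.08 and 8 genes without wild type embryo 1, and -0.07 without null embryo 2), with Tgfb3 at -0.39 (SE 0.18; limma adjusted p = 0.595) and the receptor Tgfbr2 at -0.15 (SE 0.07; adjusted p = 0.613). All 9 HIF targets kept outside the members differed upwards, with a median of 0.23, while 51% of all genes differed downwards. This count was 8, with a median of 0.13, without wild type embryo 1 and 7 without wild type embryo 3. An unadjusted limma p under 0.05 was found for 3 of the 9, against 8.7% of all genes. In 2, Slc2a1 and Pdk1, every null embryo was above every wild type embryo, as in 2.95% of all genes. The glucose transporter Slc2a1 had 1571 ± 72.2 (SD, n = 3) and 1843 ± 136 (n = 5), a difference of 0.23 (SE 0.07; limma adjusted p = 0.415). Pdk1, a kinase that inhibits pyruvate dehydrogenase, differed by 0.36 (SE 0.13; limma adjusted p = 0.462). Among the members known as HIF targets, P4ha1 and Plod2 differed by 0.14 (SE 0.11) and 0.12 (SE 0.21). Lox and P4ha2 differed by -0.16 (SE 0.17) and -0.09 (SE 0.11). These signs were not tested, since this contrast chose the members, and nothing is read from them. Of 4 other 2-oxoglutarate hydroxylases, Egln3, which marks HIF for degradation and is itself induced by it, differed by 0.58 (SE 0.30; adjusted p = 0.629) and Jmjd6 by 0.22 (SE 0.08; adjusted p = 0.462). Egln3 had the embryo order of Lox, at 98.41, 198.1 and 69.55, and 229.3, 220.6, 183.2, 124.3 and 143.6, and 2 of the 9 HIF targets had that order, against 14.8% of all genes.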

How the data were processed

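Mouse embryonic fibroblast mRNA was measured on 20 one-colour Affymetrix arrays. The deposited values are MAS5 signal intensities per probe set, per the submitters' processing notes. The MAS5 version, scaling target, detection calls and genome build were not given in the sources used here. A trimmed mean (2% off each end) was 500.2 on every array, so the authors' intensities were already scaled, which hides a change shared by all genes. No depth applies, and the number of embryos limits the precision. Of 22690 probe sets, 64 were controls, 20380 had 1 gene symbol and 691 several; 20351 matched the RefSeq table (GRCm38.p6) by gene identifier, which gave current symbols.

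Values were converted to log2(signal + 16) and averaged per embryo. The probe set with the highest mean stood for a gene, and genes whose mean was below percentile 40 were left out, which kept 7436 of 12393. All 9 measured members passed. The genotypes were tested in limma 3.58.1 (R 4.3.3; lmFit, eBayes with trend, two-sided, null minus wild type, Benjamini-Hochberg, adjusted p under 0.05), and embryos of 1 genotype with limma's F test over cultures. No genotype test of the members is reported, since that contrast chose them. A fit on every probe set gave the differences of all 14. Embryos were the replicates, since each gave several cultures per the design text; the titles' first number was read as the embryo. The fits were tested on simulated data.

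The members and gene lists were chosen with earlier results of these data known. Named genes were E2f4, all members, and in each other list the called genes or else the 2 with the smallest p; any other gene named is marked as picked from its values. The promoter windows came from RefSeq; a protein comparison was not made. The alternatives covered the pseudocount (4 and 64), filter, scaling, probe sets, replicate unit, variance model, label numbers as blocks and each embryo left out.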

Additional observations from a re-analysis of the deposited data

Results flagged for a closer look

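In the null group, E2f4 in embryo 5 stood apart from the other 4 embryos, at a signal of 196 against 155 to 167. Its gap to the nearest embryo was 0.72 of the range of the group, barely above Dixon's critical value of 0.71 for 5 samples. The flag thus stands at the threshold. It was 1 of 31 probe sets examined in this way, and chance alone gives about 1 in 20. No probe set of the lysyl oxidases or collagen hydroxylases had such an embryo.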

How the results depend on the processing

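The count of genes called between genotypes, 1 in limma's comparison of embryo means, was 0 with every probe set, with only cultures 1 and 2, and under the embryo number as a replicate block, 80 with cultures and the embryo as a random block, and 38 with the culture number as a replicate block in that fit; the cause was not tested. Leaving out 1 embryo gave 0 to 11. The labels do not pair embryos of the 2 genotypes, and the numbers were not taken as pairs in the main fit. Same-numbered embryos correlated at 0.06, 0.63 and 0.45 (numbers 1 to 3) in their deviations from the genotype means. What embryos of the same number share was not tested. In the lists outside the members the count of 0 became 1, Pcolce2, with the random block and with the culture number as a replicate block. Member counts in the F tests were 7 between wild type and 5 between null embryos, and leaving out 1 embryo gave 5 to 6 and 3 to 5. The culture number as a replicate block left 7 and 5.

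Plod3 differed by -0.46 to -0.35 and Loxl3 by -0.65 to -0.49 over 17 alternatives. Among the other members the sign turned in some for Plod1 (up to 0.01) and Plod2 (down to -0.08), and Loxl1 went from -0.03 to -0.07 with quantile normalization and to 0.00 in another. The count of members with the shared embryo order was 4 or 5, and that with all null embryos below the wild type 2, in the 6 settings tried, which were chosen after the data were seen. Without the 2 arrays with outlying controls, also chosen later, the F tests gave 7 and 5. Signals near the background, as in the third Lox probe set, cannot be read without detection calls.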

Other observations

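A pair of collagen substrates differed between embryos in another order, as seen after their values were examined. Col5a3, a minor fibrillar collagen chain, had signals of 2058, 606.3 and 1062 in wild type embryos 1 to 3 and 1008, 818.9, 1032, 933.5 and 747.3 in null embryos 1 to 5. Wild type embryo 2, the highest wild type embryo for Lox, was the lowest here (limma F test adjusted p = 6.82e-09 between wild type and 0.00398 between null embryos). Col3a1, a main fibrillar collagen of soft tissue, had 14280, 9487 and 12630 in the wild type (adjusted p = 5.66e-07) and 10390, 12470, 11510, 12030 and 11340 in the null (adjusted p = 0.196). The wild type embryos thus did not share 1 order over all collagens.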
